A study of Mus musculus with 2 samples.

Results

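A set of 35 genes of glutamine and glutathione metabolism was followed across the immune cells of the mouse spleen. They were taken by symbol from the 32285 genes of the feature lists, and each of the 35 symbols was found. The genes encode enzymes that make or use glutamine and glutamate, carriers that bring amino acids into the cell, enzymes that build and recycle glutathione, and enzymes that use it. CD45+ cells, the leukocytes, had been sorted from spleens of mice with the genotype label WT and sequenced cell by cell in droplets, each group giving 1 library. The Glutoborin mice had been injected intraperitoneally with 10000 iRBCs and given Glutoborin on days 2 and 4, and their spleens were taken on day 5. The Vehicle mice had the same injection and the same days, with Vehicle in place of Glutoborin. The labels explain neither iRBC nor Glutoborin, and the number of mice behind a library, their age and an uninjected control are not given in the sources used here.

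After filtering, 8901 Glutoborin cells with 52451545 UMIs (unique molecular identifiers, which count RNA molecules) and 6492 Vehicle cells with 44148828 UMIs were kept, with medians of 4811 and 5688 UMIs per cell. The mitochondrial limit removed 4.07% of Glutoborin barcodes and 18.5% of Vehicle barcodes. The libraries shared 24 barcodes, of which 20 were among the kept cells in both. The 35 genes held 0.190% of the kept UMIs in the Glutoborin library and 0.193% in the Vehicle library. Cell classes carry the name of the type whose markers they express, and each such name means a resemblance, not a proven identity. With 1 library on each side the differences have no replicate check, and none was tested. A level is given as CPM, the share of a class's UMIs in parts per 1000000, and the 95% intervals cover counting error only, not the spread between mice.

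Glutamine is made from glutamate and ammonia by glutamine synthetase and can be turned back into glutamate. Its amide nitrogen feeds the synthesis of purines, pyrimidines, asparagine and amino sugars, and glutamate is a nitrogen donor for serine. Glutamate, cysteine and glycine together form glutathione, the main thiol of the cell, which peroxidases and transferases spend on peroxides and electrophiles and which glutathione reductase restores. Lymphocytes are known to take up more glutamine when they are activated and divide.

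Levels were set side by side in 12 classes, those where both libraries had 20 cells or more. The class with the highest level was the same in both libraries for 18 of the 35 genes. For 9 genes its interval lay apart from that of the next class in both libraries, and these were Glul, Glud1, Gfpt1, Phgdh, Slc7a11, Slc38a2, Gsr, Gpx1 and Mgst1. The rank order of the 12 classes was compared between the libraries for each gene, and Spearman's rho had a median of 0.65 and a range of 0.13 to 0.97 over the 35 genes. This is a description, since the classes share a library and differ in depth. The counts of 18 and 9 were not made over all genes, so they do not tell the 35 genes from other genes.

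**Figure D1:**
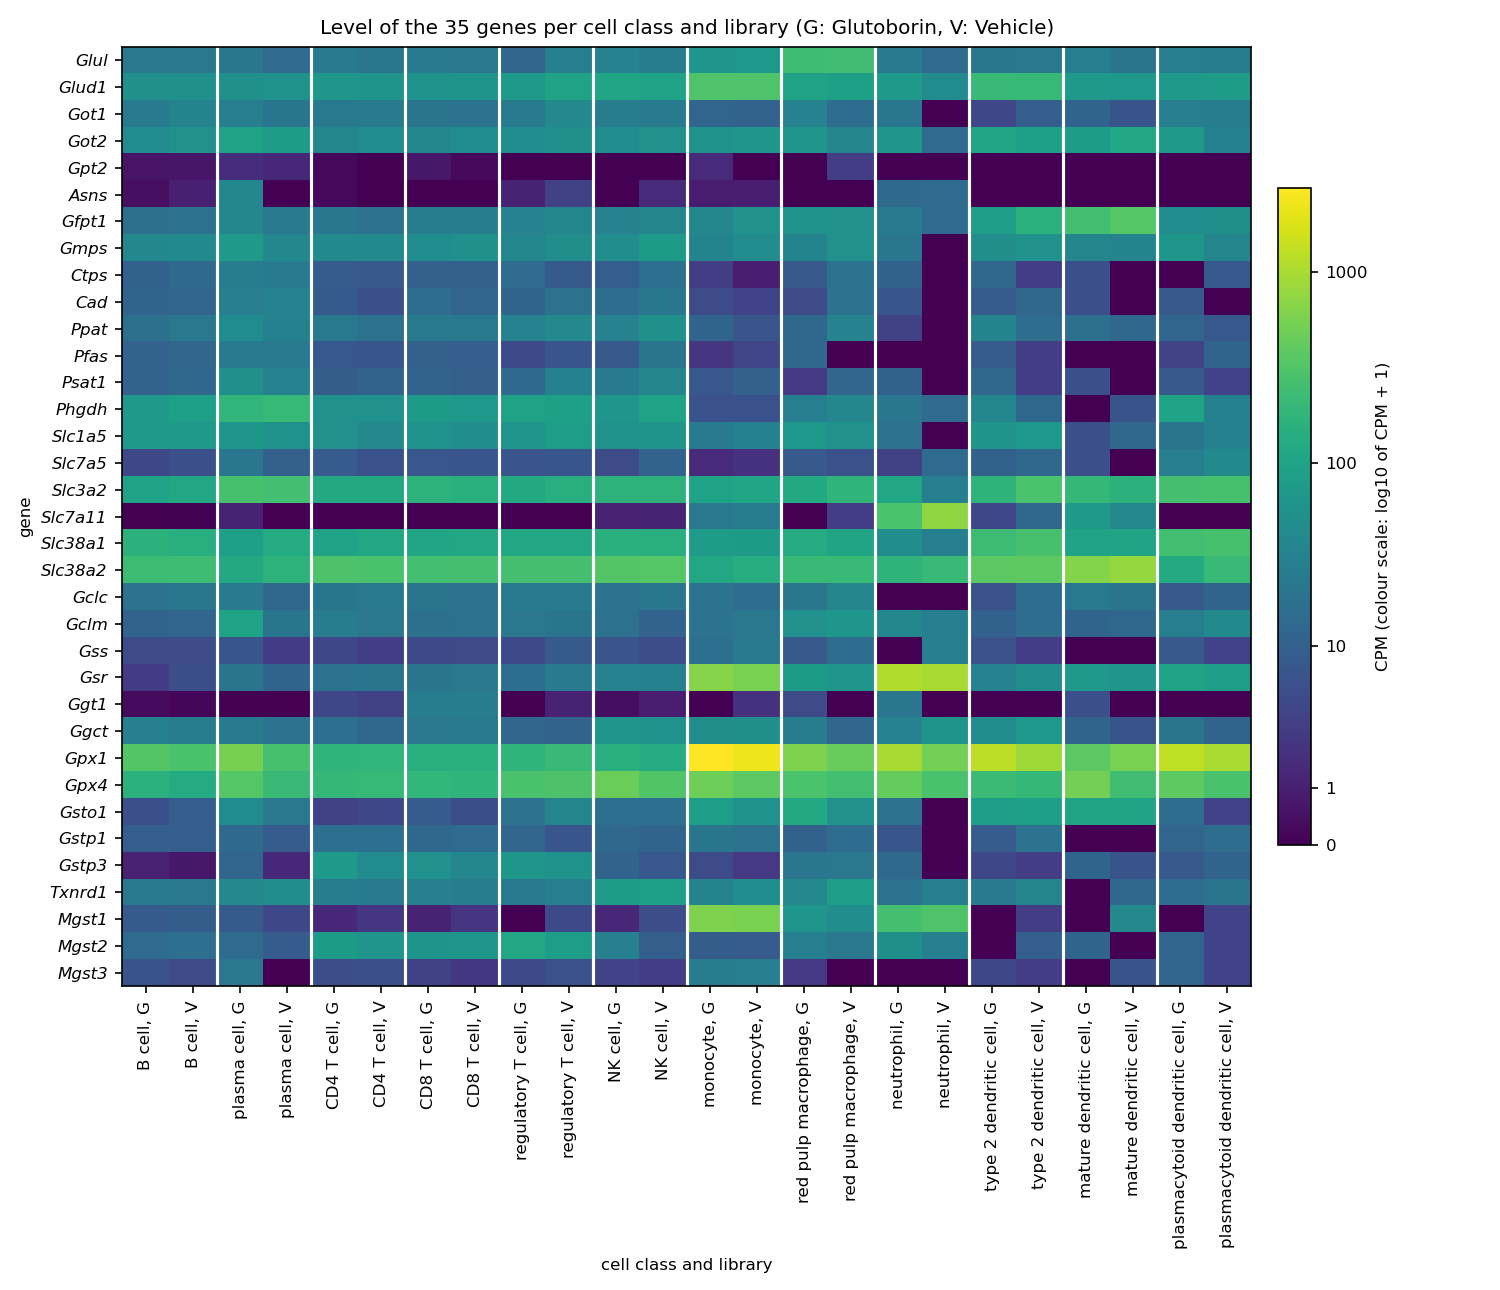
Colour shows the level in CPM (on a scale of log10 of CPM + 1) of the 35 genes (rows) in 12 cell classes, with the Glutoborin library left of the Vehicle library in each class. Gpx1 and Mgst1 are brightest in the monocyte columns, at 2776 and 2272 CPM and at 590 and 554 CPM in Glutoborin and Vehicle, and Gsr in the neutrophil columns, at 1072 and 990.0 CPM.

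Among the enzymes of glutamine and glutamate, Glul, glutamine synthetase, was highest in red pulp macrophages, the resident phagocytes that clear aged red cells. It stood there at 239 CPM in Glutoborin and 242 CPM in Vehicle, from 89 and 75 UMIs. Monocytes came next, at 63.0 CPM in Glutoborin and 68.3 CPM in Vehicle, and B cells held 22.7 and 22.1 CPM. Glud1, glutamate dehydrogenase, which turns glutamate into 2-oxoglutarate in mitochondria, was highest in monocytes. Its level was 311 CPM in Glutoborin and 312 CPM in Vehicle, followed by type 2 dendritic cells with 211 and 204 CPM and by NK cells with 110 and 99.4 CPM. The type 2 class had UMIs for 8 of its 10 markers in both libraries, with Clec10a and Mgl2 at 0. In 20% of its cells or more, 4 markers were read in Glutoborin and 6 in Vehicle. It included dividing cells, with 8 cycling markers that summed to 1187 CPM in Glutoborin and 436 CPM in Vehicle. The aminotransferases Got1 and Got2 were spread over the classes, and neither had a highest class that the libraries shared. Gpt2, the mitochondrial alanine aminotransferase, had 55 UMIs in all barcodes and Asns, asparagine synthetase, had 145. In the plasma cell class Asns had 66 UMIs in the Glutoborin library and none in the Vehicle library, where a count of 0 allows up to 4.50 CPM. The 66 UMIs came from 7 of 72 cells, 22 of them from 1 cell. The class depends on the clustering. At resolution 0.8 it kept 25 Glutoborin and 11 Vehicle cells in place of 72 and 39, and Asns then had 10 UMIs in Glutoborin and none in Vehicle. Levels in plasma cells are therefore descriptions only.

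Gfpt1, which uses glutamine to start the synthesis of amino sugars, was highest in mature dendritic cells, the Ccr7-positive cells that carry antigen to T cells. It stood at 255 CPM in Glutoborin and 345 CPM in Vehicle there, against 17.9 and 18.1 CPM in B cells. Mature dendritic cells numbered only 23 in Glutoborin and 20 in Vehicle. The glutamine-fed enzymes of nucleotide synthesis are Gmps, the last step to GMP, Ppat and Pfas, early steps of purine synthesis, Cad, which starts pyrimidines, and Ctps, which makes CTP. By the mean of both libraries, the class with their highest level was NK cells for Gmps and Ppat and plasma cells for Cad, Pfas and Ctps. For none of these 5 was it apart from the next class in both libraries. In Glutoborin, plasma cells were above NK cells for Gmps (69.1 and 47.0 CPM) and Ppat (45.4 and 32.2 CPM). In Vehicle they were below NK cells for Gmps (39.0 and 73.3 CPM) and Ppat (31.5 and 53.3 CPM). Phgdh opens the branch from glycolysis to serine, and Psat1 is the aminotransferase after it. Phgdh was highest in plasma cells, at 186 CPM in Glutoborin and 201 CPM in Vehicle, with regulatory T cells next at 94.7 and 88.3 CPM. Monocytes held 6.30 CPM of Phgdh in Glutoborin and 6.43 CPM in Vehicle. The plasma cell class included dividing cells, with the proliferation gene Mki67 at 302 CPM in Glutoborin and 332 CPM in Vehicle. In the smaller class at resolution 0.8, Phgdh stood at 149.9 CPM in Glutoborin and 114 CPM in Vehicle, from 82 and 22 UMIs. Whether the class was still apart from the next one at that resolution was not tested.

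Of the carriers, Slc38a2, a sodium-coupled importer of small neutral amino acids, was highest in mature dendritic cells, at 628 CPM in Glutoborin and 799 CPM in Vehicle. Monocytes were the lowest class for it, at 112 and 140 CPM. Slc38a1, a related glutamine carrier, stood at 251 CPM in Glutoborin and 278 CPM in Vehicle plasmacytoid dendritic cells, close to 230 and 272 CPM in type 2 dendritic cells. Slc1a5, the exchanger often called ASCT2, held 69.7 CPM in Glutoborin and 69.8 CPM in Vehicle B cells. Slc3a2, the heavy chain shared by several exchangers, was highest in plasma cells (277 CPM in Glutoborin, 261 CPM in Vehicle) and plasmacytoid dendritic cells (263 and 274 CPM), whose intervals overlapped. At resolution 0.8 plasma cells held 554 CPM of Slc3a2 in Glutoborin and 643 CPM in Vehicle. Its partner Slc7a5, the leucine and glutamine exchanger, reached 28.4 CPM in Glutoborin and 43.7 CPM in Vehicle plasmacytoid dendritic cells.

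Slc7a11, the light chain of the cystine and glutamate exchanger that supplies cysteine for glutathione, was read almost only in myeloid cells. Neutrophils held 297 CPM in Glutoborin (95% interval 236 to 369, 82 UMIs in 63 cells) and 735 CPM in Vehicle (544 to 972, 49 UMIs in 22 cells). Those intervals did not overlap, but neutrophils were below the 50 cells per library set for a comparison, and the ratio is not counted among the results. Monocytes held 23.1 CPM in Glutoborin and 27.0 CPM in Vehicle. In CD8 T cells no UMI was seen in either library, which allows up to 0.503 CPM in Glutoborin and 0.616 CPM in Vehicle.

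Glutathione synthesis runs through glutamate-cysteine ligase, with its catalytic subunit Gclc and its modifier Gclm, and then glutathione synthetase, Gss. The class with the highest level differed between the libraries for each of the 3 genes. Gclc lay between 18.7 and 24.5 CPM in Glutoborin and between 19.7 and 25.8 CPM in Vehicle over B, NK and the 3 T cell classes. In the plasma cell class Gclm had 161 UMIs in Glutoborin (97.5 CPM, 24 of 72 cells) and 14 in Vehicle (8 of 39 cells), and 41 of the Glutoborin UMIs came from 1 cell. At resolution 0.8 the class held 5 Gclm UMIs in Glutoborin and none in Vehicle. Erythroid markers, 6 of 7 with UMIs in Glutoborin and 3 of 7 in Vehicle and with Slc4a1 at 0 in both, summed to 175 CPM in Glutoborin and 16.5 CPM in Vehicle plasma cells. Monocyte markers, 11 of 13 with UMIs in Glutoborin and 10 of 13 in Vehicle and with Ace at 0 in both, summed to 1099 CPM in Glutoborin and 604 CPM in Vehicle. Basophil or mast cell markers, 6 of 7 with UMIs in both and Prss34 at 0, summed to 99.95 CPM in Glutoborin and 156 CPM in Vehicle. The part of these cells in the Asns and Gclm counts was not tested. Gss reached 17.2 CPM in Glutoborin and 23.6 CPM in Vehicle monocytes. Gsr, glutathione reductase, stood at 1072 CPM in Glutoborin and 990.0 CPM in Vehicle neutrophils, at 655 and 571 CPM in monocytes, and at 3.10 and 5.68 CPM in B cells. Ggct, which takes gamma-glutamyl peptides apart, was at 60.8 CPM in Glutoborin and 57.7 CPM in Vehicle NK cells. Ggt1, the surface enzyme that opens extracellular glutathione, was highest in CD8 T cells, at 26.6 CPM in Glutoborin and 27.5 CPM in Vehicle. CD4 T cells held 4.36 CPM of Ggt1 in Glutoborin and 3.70 CPM in Vehicle, and B cells held 0.251 and 0.155 CPM. The 5 CD8 clusters with at least 50 cells in each library lay between 22.6 and 29.8 CPM of Ggt1 in Glutoborin and between 18.8 and 33.5 CPM in Vehicle, with overlapping intervals. Glutoborin neutrophils had 6 Ggt1 UMIs, or 21.7 CPM, so the CD8 class was not apart from the next class. With each cell thinned to 2000 UMIs, 4.89% of Glutoborin and 4.50% of Vehicle CD8 T cells had a Ggt1 UMI (unthinned 14.7% and 16.3%), against 0.0422% and 0.0594% of B cells (unthinned 0.126% and 0.0878%). The median depth was 6451 UMIs in Glutoborin and 6987.5 UMIs in Vehicle CD8 T cells, and 4159 and 4770 UMIs in B cells.

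Gpx1, the cytosolic glutathione peroxidase, was highest in monocytes, at 2776 CPM in Glutoborin and 2272 CPM in Vehicle. Plasmacytoid dendritic cells came next with 1308 and 1002 CPM, and NK cells were lowest with 142 and 136 CPM. Gpx4, which reduces lipid peroxides in membranes, was lowest in B cells, at 158 CPM in Glutoborin and 130.1 CPM in Vehicle, and stood at 484 and 376 CPM in monocytes. Mgst1, a membrane-bound glutathione transferase, was read mostly in monocytes (590 CPM in Glutoborin, 554 CPM in Vehicle) and neutrophils (264 and 315 CPM). CD4 T cells held 1.39 CPM of Mgst1 in Glutoborin and 2.47 CPM in Vehicle. Mgst2, of the same family and also known to make leukotriene C4, had another pattern. It was highest in regulatory T cells, at 111 CPM in Glutoborin and 84.7 CPM in Vehicle, with 73.9 and 62.1 CPM in CD4 T cells and 9.25 and 8.88 CPM in monocytes. Mgst3 reached 27.3 CPM in Glutoborin and 29.1 CPM in Vehicle monocytes. Txnrd1, thioredoxin reductase, was highest in NK cells at 76.0 CPM in Glutoborin and 89.0 CPM in Vehicle. Gsto1, an omega-class transferase that reduces glutathione adducts, stood at 101 CPM in Glutoborin and 102 CPM in Vehicle mature dendritic cells and at 3.83 and 4.52 CPM in CD4 T cells.

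The pi-class transferases Gstp1 and Gstp3 lie close together on chromosome 19, on the same strand, with Gstp1 at chr19:4035407-4037985 and Gstp3 at chr19:4057477-4059569 (GRCm38). Gstp3 was high in T cells, at 65.4 CPM in Glutoborin and 57.7 CPM in Vehicle regulatory T cells, and low in B cells, at 1.09 and 0.672 CPM. Gstp1 lay at 16.9 CPM in Glutoborin and 17.3 CPM in Vehicle CD4 T cells and at 9.72 and 9.61 CPM in B cells. Of the 31-base words of the Gstp3 transcript, 0.737% also occur in Gstp1, whereas 67.5% of those of Gstp1 occur in the neighbouring Gstp2. Counts of Gstp1 are therefore uncertain, since reads can be shared with Gstp2.

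The 250 bases before the RefSeq transcript start are shown for 4 genes whose class patterns stand apart: Slc7a11 and Mgst1 for the myeloid cells, and Gstp3 beside its neighbour Gstp1 for the T cells. Capitals mark matches to TGATGNAA, the element bound by Atf4 when amino acids run short (Slc7a11, once on each strand), or to TGACNNNGC, the core of the element bound by Nfe2l2 in oxidative stress (Mgst1, on the reverse strand). Both strands were searched, and no marked matches overlap. The sequences are from RefSeq on GRCm38.p6, given 5′ to 3′ on the strand of the gene, at chr3:50443614-50443863 (minus strand), chr6:138140277-138140526 (plus), chr19:4059448-4059697 (minus) and chr19:4037913-4038162 (minus) in the order printed. The start that RefSeq gives is not the one of the GENCODE gene, whose positions are given above for Gstp1 and Gstp3. Of the 250 bases printed, 1 lies inside the GENCODE gene for Slc7a11, 211 for Mgst1, the marked match included, 122 for Gstp3 and 73 for Gstp1.
Slc7a11: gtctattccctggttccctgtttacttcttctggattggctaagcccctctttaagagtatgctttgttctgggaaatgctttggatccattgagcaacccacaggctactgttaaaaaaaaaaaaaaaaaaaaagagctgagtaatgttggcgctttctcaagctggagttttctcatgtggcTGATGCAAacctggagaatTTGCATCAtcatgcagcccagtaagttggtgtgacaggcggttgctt
Mgst1: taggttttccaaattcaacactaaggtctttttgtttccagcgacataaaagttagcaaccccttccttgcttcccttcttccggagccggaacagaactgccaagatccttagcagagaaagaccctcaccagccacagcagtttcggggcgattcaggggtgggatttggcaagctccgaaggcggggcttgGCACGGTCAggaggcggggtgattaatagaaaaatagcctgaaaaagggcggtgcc
Gstp3: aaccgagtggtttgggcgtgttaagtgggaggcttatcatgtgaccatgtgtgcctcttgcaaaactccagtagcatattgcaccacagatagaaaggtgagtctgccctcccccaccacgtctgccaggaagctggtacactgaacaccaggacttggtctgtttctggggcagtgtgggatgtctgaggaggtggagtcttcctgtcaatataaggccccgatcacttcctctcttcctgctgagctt
Gstp1: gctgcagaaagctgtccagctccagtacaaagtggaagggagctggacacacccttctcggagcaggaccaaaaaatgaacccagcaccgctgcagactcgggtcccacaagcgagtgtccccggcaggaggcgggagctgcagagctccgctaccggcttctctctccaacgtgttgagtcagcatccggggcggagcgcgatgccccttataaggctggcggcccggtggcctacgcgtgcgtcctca
RefSeq held a promoter for 29 of the 35 genes. TGATGNAA was found before Asns, Got1 and Slc7a11, so in 3 of 29, and in 3.45% of all 32851 promoters. TGACNNNGC was found in 9 of 29 and in 10.2% of all, and CACGTG, the E-box that Myc can bind, in none of 29 and in 6.02% of all. The 29 are genes, each counted if any of its promoters matched, while the percentages are over single promoters. The shares are therefore in unlike units, and they do not tell whether the motifs are more or less frequent in the 35 genes. A match describes the letters and is no evidence of binding.

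**Figure D2:**
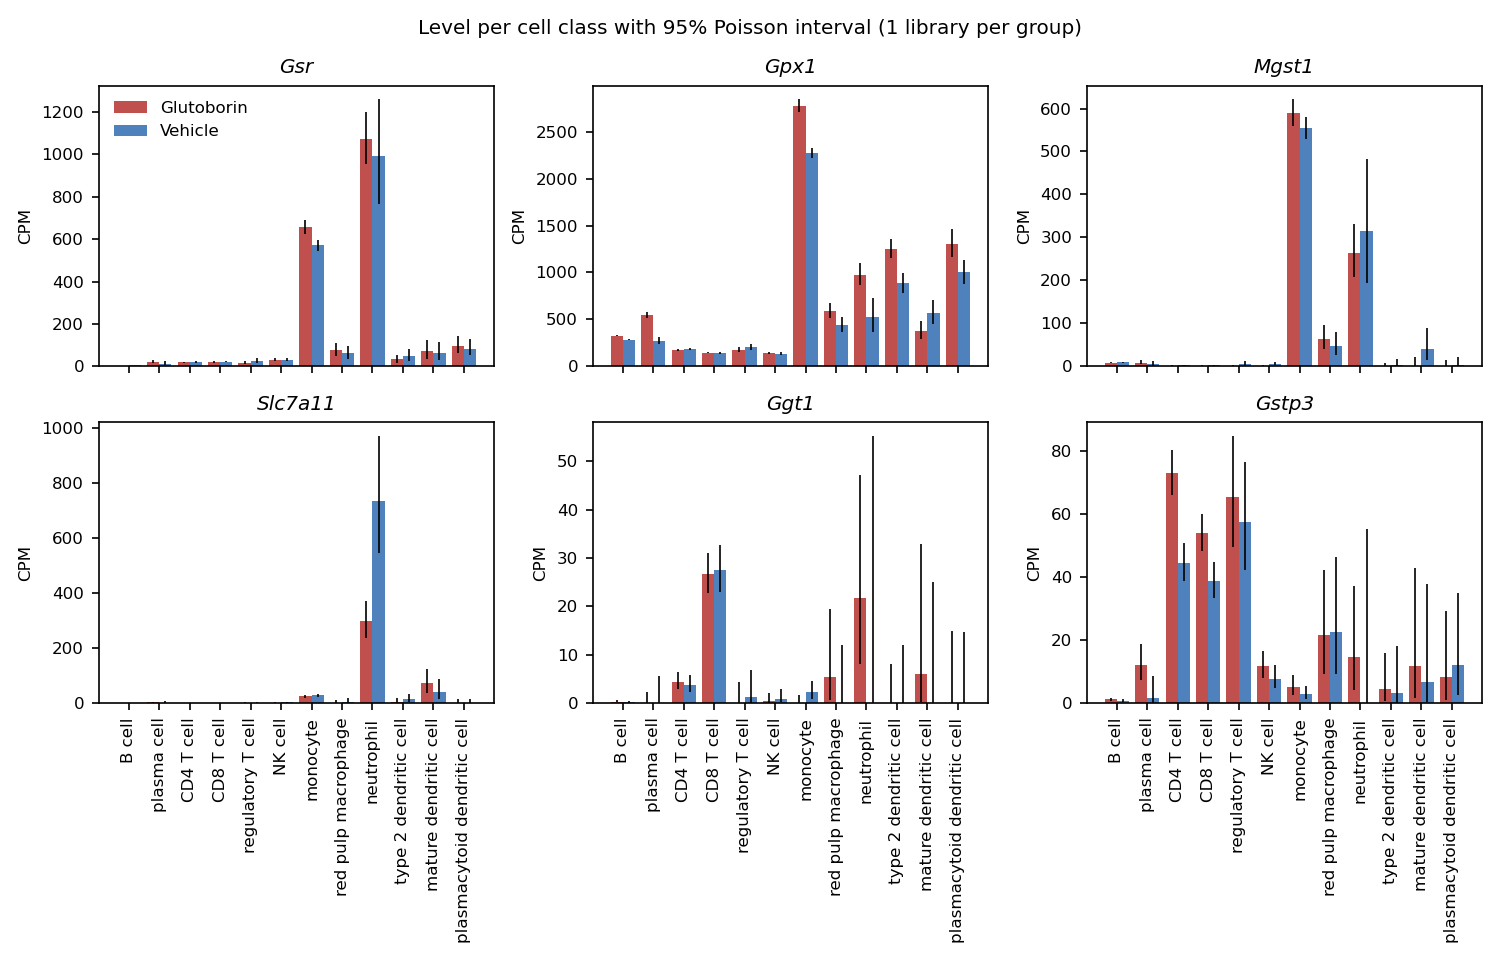
Bars give the level in CPM of 6 genes in 12 cell classes, Glutoborin left of Vehicle, with 95% Poisson intervals. Gsr and Mgst1 stand out in monocytes and neutrophils, Slc7a11 in neutrophils (297 CPM in Glutoborin, 735 CPM in Vehicle), Ggt1 in CD8 T cells and Gstp3 in the T cell classes.

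Within the B cells, 9 clusters had been formed without the 35 genes, and their levels were read in each. Cluster 6, which held 296 Glutoborin cells and 285 Vehicle cells and was led by Srm, Mif and Ncl, genes of polyamine and ribosome synthesis and cell growth, was the highest cluster for 19 of the 35 genes, in both libraries for 13. Its interval was apart from those of the 8 other clusters in both libraries for Ctps, Ppat, Psat1 and Phgdh. The same counts were not made over all genes, so they do not tell the 35 genes from other genes. Phgdh stood at 202 CPM in Glutoborin and 203 CPM in Vehicle cells of cluster 6, against 42.2 to 123 CPM in Glutoborin and 47.9 to 110 CPM in Vehicle cells of the other clusters. Ppat stood at 45.8 CPM in Glutoborin and 62.5 CPM in Vehicle, where the other clusters reached at most 19.7 and 32.6 CPM. Psat1 was at 39.9 CPM in Glutoborin and 43.4 CPM in Vehicle, and Ctps at 31.9 and 49.8 CPM. Cad, Pfas and Slc7a5 were highest there too, with 41.7, 30.1 and 21.5 CPM in Glutoborin and 32.6, 32.6 and 21.1 CPM in Vehicle, although some intervals touched those of the small cluster 21. Gpx4 was instead highest in cluster 21, at 254 CPM in Glutoborin and 237 CPM in Vehicle, with its interval apart in both libraries. Mki67 was at 3.16 CPM in cluster 6 over both libraries, against 1111 CPM in the dividing NK cluster. Cluster 6 made up 6.20% of the Glutoborin B cells and 8.34% of the Vehicle B cells.

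**Figure D3:**
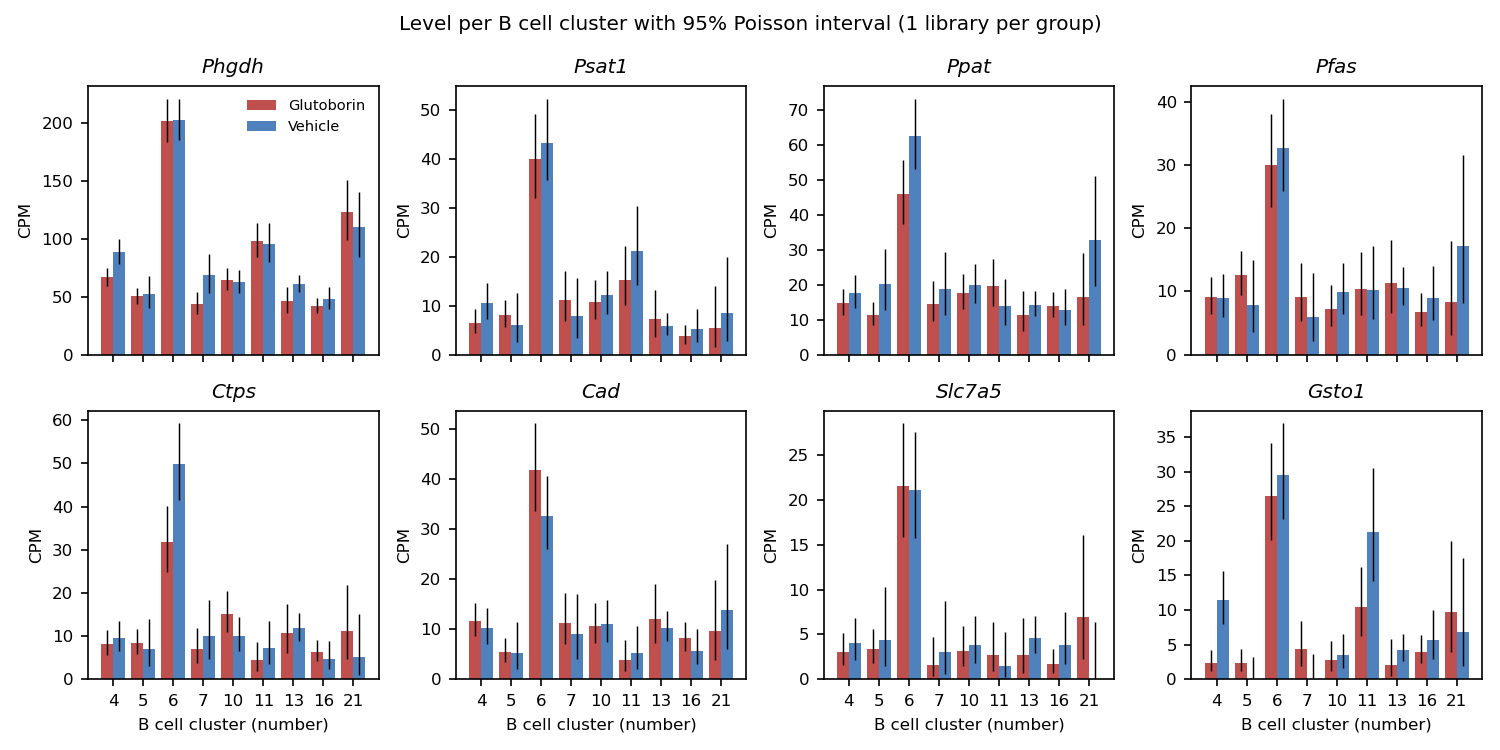
Bars give the level in CPM of 8 genes in the 9 numbered B cell clusters, Glutoborin left of Vehicle, with 95% Poisson intervals. Cluster 6 is the highest bar for each of the 8 genes in both libraries, for example 202 and 203 CPM for Phgdh in Glutoborin and Vehicle.

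Glutoborin and Vehicle were compared in 7 classes, those where both libraries had 50 cells or more, for genes with at least 50 UMIs over both libraries. Of 245 pairs of a gene and a class, 164 were measured. The 95% interval of the ratio left out no change in 39 of them, and in 11 the ratio was also at least 1.5-fold, with 4 higher and 7 lower in Glutoborin. Of all measured genes, 1.28% (CD8 T cells) to 5.67% (NK cells) were that much higher with the interval as well. Between 2.18% (CD4 T cells) and 6.53% (red pulp macrophages) were lower. The interval alone was not counted over all measured genes, so the 39 pairs do not tell the followed genes from other genes. The total of 11 does not do so either without the shares given for each class below. Gpt2 and Asns were measured in no class. The median log2 ratio of Glutoborin over Vehicle was -0.08 in B cells, 0.09 in CD4 T cells, 0.02 in CD8 T cells, -0.17 in regulatory T cells, 0.00 in NK cells, -0.08 in monocytes and 0.16 in red pulp macrophages. The same median over all measured genes lay between -0.04 and 0.02 in these classes.

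**Figure D4:**
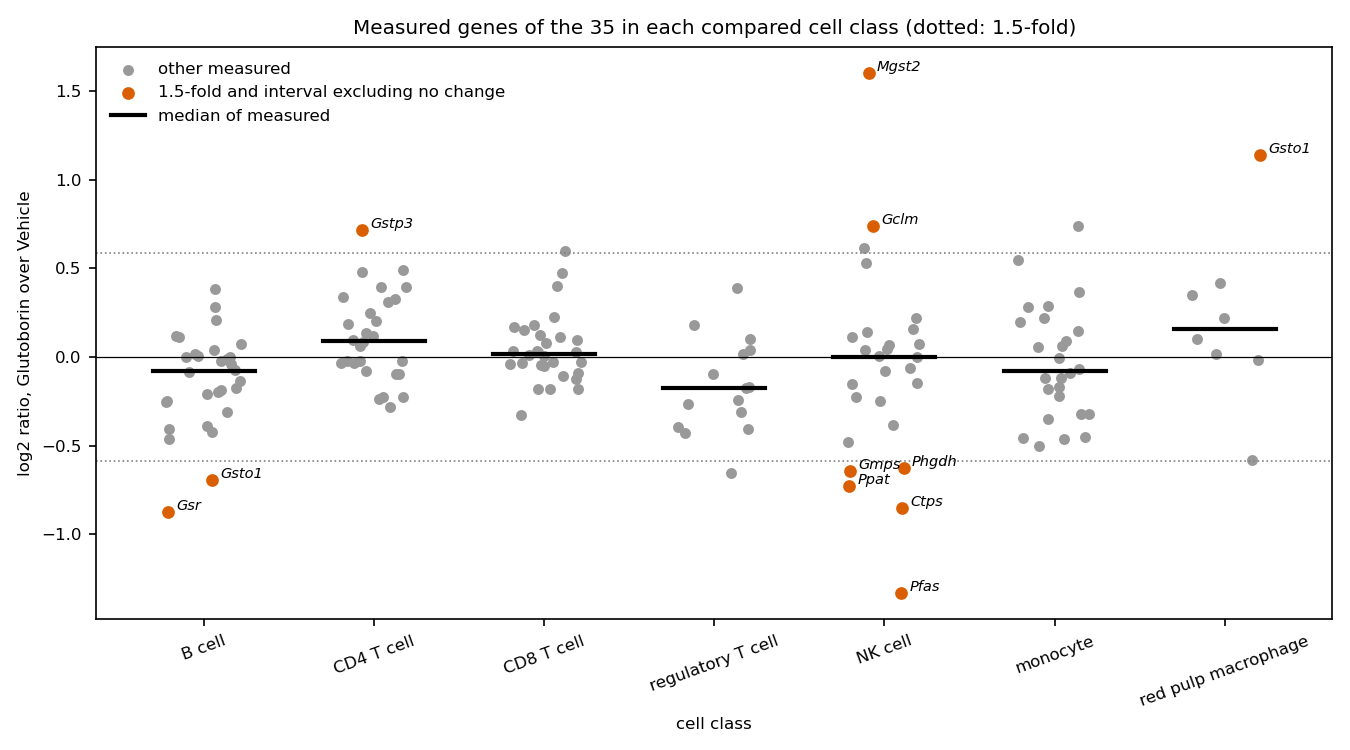
Each point is the log2 ratio of Glutoborin over Vehicle of 1 measured gene in 1 of 7 cell classes, with black bars at the median. The named orange points are at least 1.5-fold with an interval that leaves out no change, and 7 of the 11 stand in NK cells, from -1.33 for Pfas to 1.60 for Mgst2.

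NK cells, the innate killer lymphocytes, held most of these differences. Of 27 measured genes, 3 were at least 1.5-fold higher in Glutoborin, or 11.1%, where 6.93% of all 7678 measured genes were. A further 5, or 18.5%, were at least 1.5-fold lower, where 5.73% of all genes were. With the interval as well, 2 were higher (7.41%, against 5.67% of all) and 5 were lower (18.5%, against 5.14%). The 5 lower genes were 4 glutamine-fed enzymes of nucleotide synthesis, Pfas, Ctps, Ppat and Gmps, and the serine enzyme Phgdh. The 2 higher genes were Mgst2 and Gclm. The class held 355 Glutoborin cells with a median of 6694 UMIs and 257 Vehicle cells with a median of 8708 UMIs.

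Pfas, a step of purine synthesis (chr11:68985697-69008460), had 23 UMIs in Glutoborin NK cells and 51 in Vehicle NK cells, or 8.13 and 20.4 CPM, a log2 ratio of -1.33 (-2.11 to -0.59). Ctps (chr4:120539868-120570276) had 27 UMIs in Glutoborin and 43 in Vehicle, or 9.55 and 17.2 CPM (log2 -0.85, -1.60 to -0.12). For Ppat (chr5:76913249-76951578), 91 UMIs in Glutoborin and 133 in Vehicle gave 32.2 and 53.3 CPM (log2 -0.73, -1.13 to -0.33). In the large NK cluster 1 each of these was lower with an interval clear of no change. In the small dividing cluster 24 that held for Pfas, with 4 UMIs in Glutoborin and 14 in Vehicle, while the intervals of Ctps (9 UMIs in each) and Ppat (19 in Glutoborin, 16 in Vehicle) included no change. With each cell weighing the same, Ppat stood at -0.51, under the 1.5-fold mark. Gmps (chr3:63976106-64022579) stood at 47.0 CPM in Glutoborin, from 133 UMIs, and at 73.3 CPM in Vehicle, from 183 (log2 -0.64, -0.97 to -0.31). Cad, the start of pyrimidine synthesis, stood at 16.3 CPM in Glutoborin and 21.2 CPM in Vehicle, with an interval that included no change (-0.99 to 0.21).

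Phgdh (chr3:98313170-98339990) had 179 UMIs in Glutoborin NK cells and 244 in Vehicle NK cells, or 63.3 and 97.8 CPM (log2 -0.63, -0.91 to -0.34). In cluster 1 it stood at 47.7 CPM in Glutoborin and 92.3 CPM in Vehicle (log2 -0.95), and in the dividing cluster 24 at 121 and 133 CPM (log2 -0.14, -0.70 to 0.43). Cluster 24 held 34 Glutoborin cells and 19 Vehicle cells, or 9.58% and 7.39% of the class. Psat1, the next enzyme to serine, was at 26.2 CPM in Glutoborin and 36.5 CPM in Vehicle (log2 -0.48, -0.94 to -0.02). When each cell was thinned to 2000 UMIs, which left 12 genes measured, none of them was 1.5-fold higher or lower, Phgdh stood at -0.27 and Gmps at -0.07. Pfas, Ctps, Ppat, Gclm and Mgst2 then had under 50 UMIs.

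Mgst2 (chr3:51660360-51682677) had 86 UMIs in Glutoborin NK cells and 25 in Vehicle NK cells, or 30.4 and 10.0 CPM, a log2 ratio of 1.60 (0.94 to 2.31). In cluster 1 it stood at 31.9 CPM in Glutoborin and 9.74 CPM in Vehicle (log2 1.71, 0.99 to 2.49). In cluster 24, with 15 UMIs in Glutoborin and 4 in Vehicle, the interval included no change (-0.58 to 3.12). The UMIs came from 65 of 355 Glutoborin cells and 24 of 257 Vehicle cells. After thinning, 5.63% of Glutoborin cells (3.47 to 8.57%) and 2.41% of Vehicle cells (0.889 to 5.17%) had an Mgst2 UMI, so the shares overlapped at that depth, against unthinned shares of 18.3% and 9.34%. In monocytes, a class with little Mgst2, the thinned shares were 0.971% in Glutoborin and 2.43% in Vehicle. Gclm, the modifier subunit of the rate-limiting step of glutathione synthesis (chr3:122245557-122270732), had 53 UMIs in Glutoborin and 28 in Vehicle, or 18.7 and 11.2 CPM (log2 0.74, 0.05 to 1.46). Its interval included no change both in cluster 1 (log2 0.64, -0.15 to 1.46) and in cluster 24 (log2 0.84, -0.68 to 2.64). Its ratio was under the 1.5-fold mark in 3 of 9 alternatives, at 0.23 with doublets kept, 0.51 with a mitochondrial limit of 25% and 0.55 with each cell weighing the same. Gpx4 was at 471 CPM in Glutoborin and 326 CPM in Vehicle (log2 0.53, 0.40 to 0.66), under the 1.5-fold mark, and the catalytic subunit Gclc was at 19.4 and 21.6 CPM. The carriers Slc3a2, Slc38a1, Slc38a2 and Slc1a5 had ratios between -0.08 and 0.11 in NK cells, each with an interval that included no change.

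Markers of other cells moved with the group in NK cells. The 9 T cell markers, each with UMIs in both libraries, summed to 920 CPM in Glutoborin and 728 CPM in Vehicle. The 9 B cell markers, also each read in both, summed to 483 CPM in Glutoborin and 811 CPM in Vehicle. The 10 red pulp macrophage markers summed to 39.3 CPM in Glutoborin (10 with UMIs) and 14.0 CPM in Vehicle (8 with UMIs). T cells are the classes with the highest Mgst2, and the part of these cells in its ratio was not tested.

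**Figure D5:**
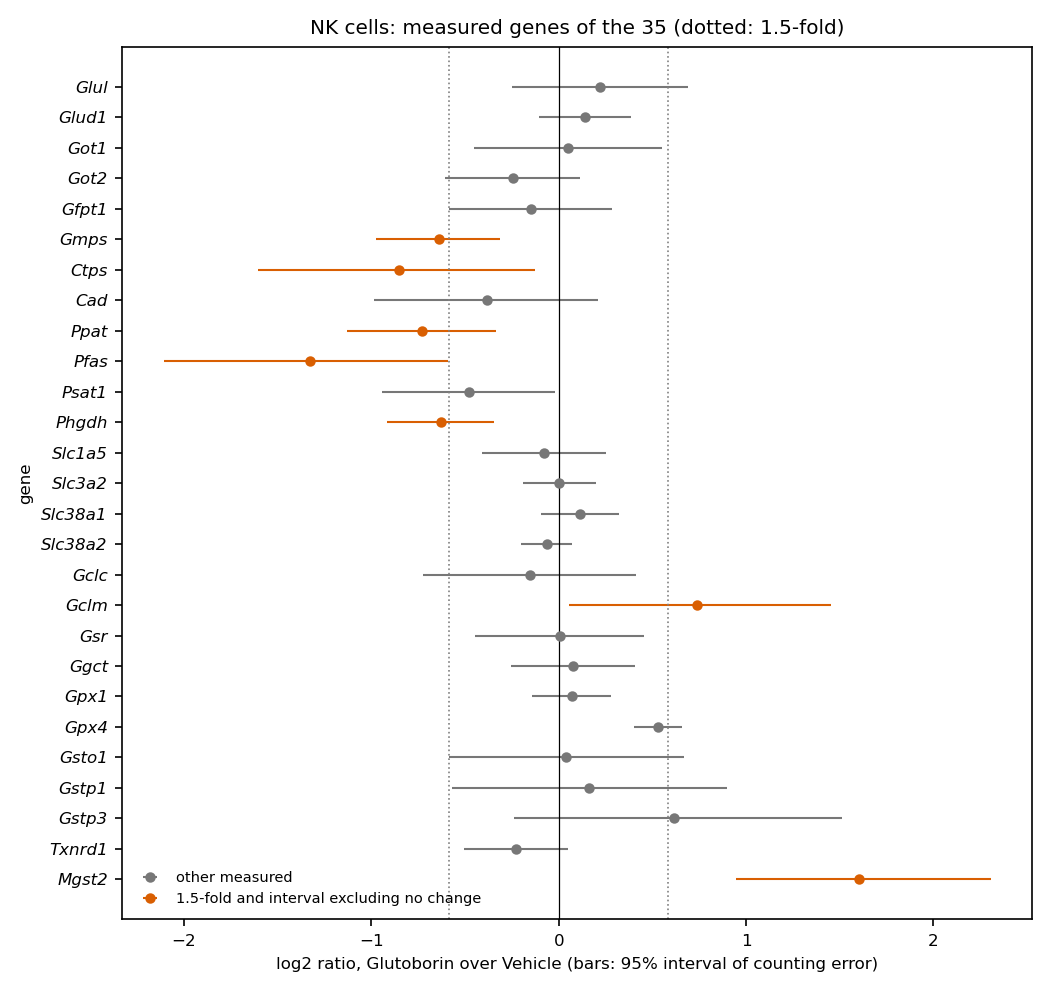
Points give the log2 ratio of Glutoborin over Vehicle of the 27 measured genes in NK cells, with 95% intervals of counting error, and dotted lines mark 1.5-fold. The glutamine-fed nucleotide enzymes Gmps, Ctps, Ppat and Pfas and the serine enzyme Phgdh lie left of the lower line, Mgst2 and Gclm right of the upper one.

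Other genes of the same pathways were counted in NK cells from lists that do not hold the 35 genes. The lists, like the 35 genes, were chosen with earlier results of these data known, so they are not an independent check. No values thinned to equal depth are given for them, and the median depth was 6694 UMIs in Glutoborin and 8708 UMIs in Vehicle NK cells. Of the other glutamine, glutamate and nucleotide enzymes, none of 18 measured was 1.5-fold higher and 7 were lower, 6 of them with an interval clear of no change, where 6.93% of all measured genes were higher, 5.73% lower and 5.14% lower with the interval. They had a median log2 ratio of -0.51 where the median of all genes was 0.02. Adsl, in purine synthesis, was at 21.9 CPM in Glutoborin and 41.7 CPM in Vehicle (log2 -0.93), Atic, its last step, at 25.1 and 45.3 CPM (log2 -0.85), and Umps, in pyrimidine synthesis, at 16.3 and 30.9 CPM (log2 -0.92). Of the serine and one-carbon enzymes, none of 9 was higher and 6 were lower, each with its interval clear of no change, with a median of -0.69. Shmt1 stood at 6.01 CPM in Glutoborin and 14.8 CPM in Vehicle (log2 -1.30), and Shmt2 at 29.3 and 48.1 CPM (log2 -0.71). Both are hydroxymethyltransferases that pass the carbon of serine to folate, and Mthfd2, which acts next in mitochondria, was at 20.9 CPM in Glutoborin and 36.9 CPM in Vehicle (log2 -0.82). Of the other glutathione enzymes, 3 of 10 were higher, each with its interval clear of no change, and none was lower, with a median of 0.11. They were the transferases Gstm1, at 38.5 CPM in Glutoborin and 17.6 CPM in Vehicle (log2 1.13), and Gstt2, at 13.4 and 6.41 CPM (log2 1.07), and the glutaredoxin Glrx, at 36.8 and 23.3 CPM (log2 0.66). None of the 15 measured genes of the thioredoxin and peroxiredoxin list or of the 10 on the Nfe2l2 and NADPH list was past 1.5-fold. Of the other amino acid and glutathione carriers, none of 9 was higher and 1 was lower, with an interval that included no change. Of 10 genes of the Atf4 and amino acid response, 1 was higher and 2 were lower, with 1 interval on each side clear of no change.

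In CD4 T cells, 1 of 28 measured genes (3.57%) was at least 1.5-fold higher in Glutoborin, with its interval clear of no change, where 2.49% of all 8626 measured genes were that much higher and 1.62% with the interval as well. None was lower, against 2.63% of all, or 2.18% with the interval. The gene was Gstp3, with 419 UMIs in Glutoborin and 216 in Vehicle, or 73.0 and 44.4 CPM (log2 0.72, 0.48 to 0.96). It was higher in Glutoborin in each of the 5 CD4 clusters, which ranged from 57.9 to 115 CPM in Glutoborin and from 37.3 to 58.8 CPM in Vehicle. With each cell thinned to 2000 UMIs, 13.5% of Glutoborin cells (11.6 to 15.7%) and 7.49% of Vehicle cells (5.78 to 9.52%) had a Gstp3 UMI (unthinned 27.2% and 19.4%). B cells had thinned shares of 0.232% in Glutoborin and 0.0594% in Vehicle. Gstp1, its neighbour, was at 16.9 CPM in Glutoborin and 17.3 CPM in Vehicle. Slc1a5 stood at 53.8 CPM in Glutoborin and 40.9 CPM in Vehicle CD4 T cells (log2 0.40, 0.13 to 0.66). Among the other glutathione enzymes 3 of 13 were 1.5-fold higher, 2 of them with an interval clear of no change, and none was lower, with Gstt2 at 17.8 CPM in Glutoborin and 9.87 CPM in Vehicle (log2 0.85) and Chac2 with 35 UMIs in Glutoborin and 15 in Vehicle (log2 0.98). B cell markers in the class, 9 of 9 with UMIs in both libraries, summed to 387 CPM in Glutoborin and 596 CPM in Vehicle, and their part in the ratios was not tested.

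In CD8 T cells, 1 of 30 measured genes (3.33%) was at least 1.5-fold higher, where 2.01% of all 8523 genes were, and none was lower, where 3.65% were. That gene, Gsto1, stood at 8.71 CPM in Glutoborin and 5.75 CPM in Vehicle with an interval that included no change (-0.09 to 1.32), so 0 passed both marks, against 1.28% of all genes higher and 3.19% lower. Gstp3 was at 53.9 CPM in Glutoborin and 38.8 CPM in Vehicle (log2 0.47, 0.21 to 0.74), and in 4 of the 5 clusters with at least 50 cells per library it was higher in Glutoborin. In regulatory T cells, none of 15 measured genes was 1.5-fold higher, against 2.75% of all 4184 genes, and 1 was lower (6.67%), against 5.14%. It was Got1, the cytosolic aspartate aminotransferase, at 25.7 CPM in Glutoborin and 40.5 CPM in Vehicle, with an interval that included no change, so none passed both marks, against 3.23% of all genes lower and 1.46% higher.

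In B cells, none of 30 measured genes was at least 1.5-fold higher in Glutoborin, where 2.53% of all 10574 genes were, or 2.18% with the interval as well. Lower were 2, or 6.67%, both with their intervals clear of no change, where 3.4% of all genes were lower and 3.17% with the interval as well. Gsr (chr8:33652523-33698163) had 74 UMIs in Glutoborin and 110 in Vehicle, or 3.10 and 5.68 CPM (log2 -0.87, -1.32 to -0.44). It was lower in Glutoborin in 8 of the 9 clusters and higher in 1. Gsto1 (chr19:47854970-47864790) had 141 UMIs in Glutoborin and 185 in Vehicle, or 5.91 and 9.56 CPM (log2 -0.69, -1.02 to -0.37). It was lower in 6 clusters and higher in 3. The interval was clear of no change only in cluster 4 (10 UMIs in Glutoborin and 37 in Vehicle, log2 -2.30, -3.47 to -1.26) and cluster 11 (log2 -1.03, -1.95 to -0.15). In cluster 6, with 59 UMIs in Glutoborin and 74 in Vehicle, the log2 ratio was -0.15 (-0.67 to 0.36). Both genes are far higher in monocytes than in B cells. The 13 monocyte markers, each with UMIs in both libraries, summed to 202 CPM in Glutoborin and 441 CPM in Vehicle B cells, with Lyz2, the lysozyme gene, at 38.7 and 101 CPM. The part of this RNA in the ratios of Gsr and Gsto1 was not tested.

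Smaller ratios in B cells, under 1.5-fold, had intervals clear of no change in several roles, a mark that was not counted over all measured genes. For the nucleotide and serine enzymes, Ctps stood at 10.8 CPM in Glutoborin and 14.4 CPM in Vehicle (log2 -0.42), Ppat at 17.4 and 22.8 CPM (log2 -0.39), Psat1 at 11.0 and 13.6 CPM (log2 -0.31) and Phgdh at 72.8 and 86.6 CPM (log2 -0.25). Within the 9 clusters, Phgdh was lower with an interval clear of no change in cluster 4 (-0.41), cluster 7 (-0.64) and cluster 13 (-0.40), and not in the other 6, with -0.01 (-0.19 to 0.18) in cluster 6. In cluster 6 Ctps (-0.64, -1.09 to -0.21) and Ppat (-0.45, -0.82 to -0.08) were lower in Glutoborin. Got1 stood at 24.4 CPM in Glutoborin and 33.6 CPM in Vehicle (log2 -0.46), and Slc7a5 at 4.52 and 5.99 CPM (log2 -0.41). Gpx1 and Gpx4 were on the other side, at 327 CPM in Glutoborin and 283 CPM in Vehicle (log2 0.21) and at 158 and 130.1 CPM (log2 0.28). The B cell clusters held unequal shares of the class, with 7.37% of Glutoborin and 29.8% of Vehicle B cells in cluster 13 and 22.9% and 7.88% in cluster 5.

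In monocytes, 1 of 26 measured genes (3.85%) was at least 1.5-fold higher, against 3.76% of all 7666 genes, and none was lower, against 6.12%. The gene was Ppat, at 11.8 CPM in Glutoborin and 7.04 CPM in Vehicle, with an interval from -0.11 to 1.60, so none passed both marks, against 2.82% of all genes higher and 5.15% lower. Several glutathione enzymes had smaller ratios there with intervals clear of no change, a mark that was not counted over all measured genes. Gpx4 stood at 484 CPM in Glutoborin and 376 CPM in Vehicle (log2 0.37, 0.25 to 0.48), Gpx1 at 2776 and 2272 CPM (log2 0.29, 0.24 to 0.34) and Gsr at 655 and 571 CPM (log2 0.20, 0.10 to 0.30). Gsto1 was at 82.8 CPM in Glutoborin and 56.7 CPM in Vehicle (log2 0.55, 0.25 to 0.84), while Txnrd1 was at 33.2 and 45.6 CPM (log2 -0.46, -0.87 to -0.06). Mgst1 was at 590 CPM in Glutoborin and 554 CPM in Vehicle, with an interval that reached no change (-0.01 to 0.19). Of the Nfe2l2 and NADPH list, Hmox1, heme oxygenase, was the single gene of 11 past 1.5-fold, at 53.8 CPM in Glutoborin and 108 CPM in Vehicle (interval of the log2 ratio from -1.31 to -0.71). The isocitrate dehydrogenases Idh1, at 198 CPM in Glutoborin and 131 CPM in Vehicle (log2 0.60), and Idh2, at 44.1 and 29.4 CPM (log2 0.59), were among the 3 of 15 other glutamine and glutamate enzymes that were higher. Neutrophil markers, 8 of 10 with UMIs in Glutoborin and 7 of 10 in Vehicle, summed to 598 CPM in Glutoborin and 988 CPM in Vehicle monocytes, and S100a9, which led the neutrophil cluster, was at 74.0 and 399.7 CPM. T cell markers (9 of 9 with UMIs in both) summed to 204 CPM in Glutoborin and 419 CPM in Vehicle, and plasmacytoid dendritic cell markers (6 of 8 in both, Siglech at 0) to 476 and 861 CPM. Gsr and Mgst1 are also high in neutrophils, and the part of these cells in the monocyte ratios was not tested.

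In red pulp macrophages only 8 genes were measured. Of these 1, or 12.5%, was at least 1.5-fold higher with its interval clear of no change, where 6.93% of all 2222 genes were that much higher and 4.19% with the interval as well, and none was lower, against 9.36%, or 6.53% with the interval. Gsto1 had 45 UMIs in Glutoborin, from 32 of 81 cells, and 17 in Vehicle, from 13 of 72 cells, or 121 and 54.8 CPM (log2 1.14, 0.31 to 2.04). Glul, which was highest in this class, had a log2 ratio of -0.02 (-0.48 to 0.45), and Gpx1 stood at 590 CPM in Glutoborin and 441 CPM in Vehicle (log2 0.42, 0.11 to 0.74). Erythroid markers, 5 of 7 with UMIs in Glutoborin and 2 of 7 in Vehicle and with Alas2 and Slc4a1 at 0 in both, summed to 537 CPM in Glutoborin and 9.66 CPM in Vehicle, and 60.5% of the Glutoborin sum came from 1 cell. B cell markers (9 of 9 with UMIs in both) summed to 5326 CPM in Glutoborin and 3824 CPM in Vehicle, and T cell markers (9 of 9) to 2611 and 2899 CPM, so the class also carried RNA of lymphocytes. The part of these in the Gsto1 ratio was not tested.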

How the data were processed

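Each deposited matrix gives raw UMI counts, as whole numbers. Its header names Cell Ranger 6.1.2, per the file headers, and the submitters' processing notes list Cell Ranger 6.0.1, Seurat 4.3.0 and mm10. The libraries came from the 3' v3.1 droplet kit, per the labels' protocols. Barcodes were kept with 300 or more genes, 500 or more UMIs and a mitochondrial share under 10%. Doublets were called by Scrublet (scanpy 1.11.5) in each library and removed: 352 in Glutoborin (3.80%) and 196 in Vehicle (2.93%).

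Both libraries were clustered together from 2000 variable genes, 30 components, 15 neighbours and Leiden resolution 1.5. T cell clusters were then clustered again, as were dendritic cells other than the plasmacytoid ones. The 35 genes, their pathway lists, antigen receptor, mitochondrial, ribosomal, haemoglobin, sex-linked, immediate early, interferon, heat shock and cell cycle genes were left out of the variable genes. Clusters were named from marker lists, with at least 3 markers in 20% of cells, by limits set after the clusters were seen. Clusters that failed the limits stayed unnamed and held 469 Glutoborin and 222 Vehicle cells. Without a finer name stayed 483 Glutoborin and 371 Vehicle T cells, and 76 and 66 dendritic cells. UMIs were summed per class and library. Sums have exact Poisson intervals, shares exact binomial (Clopper-Pearson) intervals and ratios the exact interval of a ratio of Poisson counts, all at 95%. Counts of 0 are limited by 3 counts.

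Genes with 50 UMIs over both libraries were measured. Members get full values where the ratio was 1.5-fold and its interval left out no change, and pathway genes likewise in classes of 100 cells. The procedure was tested on simulated data. The 35 genes and the lists were chosen with earlier results of these data known. Gene positions are from GENCODE M21 (GRCm38).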

Additional observations from a re-analysis of the deposited data

Results flagged for a closer look

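Gsto1 was lower in Glutoborin B cells, at 5.91 CPM in Glutoborin and 9.56 CPM in Vehicle (log2 ratio -0.69), and higher in Glutoborin red pulp macrophages, at 121 CPM in Glutoborin and 54.8 CPM in Vehicle (log2 ratio 1.14). The classes lay on opposite sides of no change, each with an interval that leaves it out. Among the B cell clusters, only clusters 4 and 11 had such an interval. The difference between the classes was not tested, since each group is 1 library.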

How the results depend on the processing

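No paired analysis was possible because each group is 1 library. The depth of the smaller classes limits the counts, and each interval covers counting error only, so differences between mice cannot be told apart from the treatment. The median log2 ratios of the 7 classes stayed within the spread of the measured genes under each alternative, a wide mark that says little about stability. They ranged from -0.127 to -0.04 in B cells, 0.007 to 0.111 in CD4 T cells and -0.029 to 0.082 in CD8 T cells. The range was -0.249 to -0.038 in regulatory T cells, -0.063 to 0.169 in NK cells, -0.082 to 0.007 in monocytes and 0.099 to 0.42 in red pulp macrophages. Counts of genes 1.5-fold higher or lower rest on few genes and often moved by over 1.5 times, and the cause was not tested unless the setting itself tests other genes or another fold. The alternatives that leave out a cluster were chosen after seeing the data.

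The counts in this paragraph are of genes of the followed set that were higher or lower in Glutoborin. Neither the number measured nor the share of all measured genes is given for these settings. The counts therefore show only how the set moved with the setting, and cannot be read against other genes. With a mark below 1.5-fold, 1 gene was higher and 6 were lower in B cells, 7 higher in CD4 T cells, 3 higher and 1 lower in CD8 T cells, 1 higher and 4 lower in regulatory T cells, 3 higher and 7 lower in monocytes, and 3 higher and 1 lower in red pulp macrophages. With at least 10 UMIs, 1 was higher in B cells, 1 lower in CD4 T cells, 1 lower in CD8 T cells, 2 higher and 8 lower in regulatory T cells, 3 higher and 1 lower in monocytes, and 4 higher and 4 lower in red pulp macrophages. With at least 200 UMIs, 1 was lower in B cells, 0 higher in CD8 T cells, 0 lower in regulatory T cells, 0 higher and 3 lower in NK cells, 0 higher in monocytes and 0 higher in red pulp macrophages. With cells thinned to 2000 UMIs, 1 was lower in CD4 T cells, 0 higher and 2 lower in CD8 T cells, 1 higher in regulatory T cells, 0 higher and 0 lower in NK cells, and 2 lower in monocytes. With doublets kept, 0 were higher in CD8 T cells, 2 lower in regulatory T cells, 1 higher in NK cells, 0 higher in monocytes and 1 lower in red pulp macrophages. With a mitochondrial limit of 25%, 0 were higher in monocytes. At resolution 0.8, 2 were higher in CD4 T cells and 1 lower in red pulp macrophages. With each cell weighing the same, 3 were lower in monocytes, and 2 higher and 1 lower in red pulp macrophages. Without cluster T8, 2 were higher in CD8 T cells.

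The 11 named ratios kept their direction under each alternative that gave a value. The log2 ratio of Phgdh in NK cells moved beyond its interval to -1.01 with the mitochondrial limit of 25%, to -1.02 with doublets kept, to -0.95 without the dividing cluster 24 and to -0.27 after thinning, and that of Gmps to -0.07 after thinning. Under the 1.5-fold mark lay also Gmps with doublets kept (-0.53), Phgdh without the 10 cells richest in the gene (-0.50), Ppat in NK cells with each cell weighing the same (-0.51), and Gclm in 3 alternatives (0.23 to 0.55). Without the 10 cells richest in the gene, Gsto1 in red pulp macrophages stood at 2.46. The 17 Vehicle UMIs came from only 13 cells, so that value rests on very few counts and is not read as a stronger difference. Gstp3 in CD4 T cells lay between 0.71 and 0.89 and Pfas in NK cells between -1.63 and -0.91, and Mgst2 in NK cells reached 1.87.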
